A study of Mus musculus with 6 samples.

Results

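Meprins and other peptidases of the intestinal brush border were followed in the duodenum of mice with an intestine-specific mutation of the transcription factor Nkx2.2. The set held 9 genes, chosen by name, of 23235 gene symbols in the deposited tables: Mep1a, Mep1b, Anpep, Enpep, Xpnpep2, Dpp4, Ace, Mme and Ggt1. RNA sequencing covered 3 mutant and 3 control mice, 1 library each, all 6 weeks old and of mixed background. Mutants were Nkx2.2flox/TN; Villin-Cre/+; Rosa26Tomato/+. Controls 1 and 2 were Nkx2.2flox/+; Rosa26Tomato/+, and control 3 was Nkx2.2flox/+ without the reporter. Every animal thus carried a floxed Nkx2.2 allele, and no control carried Cre or TN. TN is an Nkx2.2 allele with a mutated tinman domain, and Villin-Cre is a recombinase expressed in intestinal epithelium, so the TN allele is also present in other tissues of the mutants. Cre, the TN allele and the number of remaining Nkx2.2 copies cannot be told apart in these groups. The tissue was the first 2 cm after the stomach, whole wall included. In such pieces, fewer cells of a type and less RNA per cell cannot be told apart.

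Peptides that leave the stomach and the pancreatic phase of digestion are cut further at the apical membrane of enterocytes, where membrane-bound peptidases release the short peptides and amino acids that are absorbed. Meprins are zinc metalloproteases of the astacin family. The beta subunit, encoded by Mep1b, is anchored in the membrane, whereas the alpha subunit, encoded by Mep1a, is cut from its anchor during maturation and is secreted or held at the cell surface by the beta subunit. Aminopeptidases, dipeptidyl peptidase 4, angiotensin-converting enzyme, neprilysin and gamma-glutamyltransferase act on other bonds at the same surface, and several of them also inactivate hormones and vasoactive peptides.

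Promoter windows of the RefSeq promoter set (GRCm38.p6) were read for 8 of the 9 genes, and that of Mep1b was not read. Each of the 8 windows, from 250 bases before to 50 bases after the start site, matched the mm9 genome of the deposited files exactly. The windows of Mep1a and Ggt1, whose groups did not overlap, and of Enpep, which varied with Anpep and Mep1b from library to library, are shown 5′ to 3′ with mm9 positions. Capitals mark matches, on either strand, to 1 of 6 short motifs.
Mep1a, chr17:43639673-43639972, minus strand: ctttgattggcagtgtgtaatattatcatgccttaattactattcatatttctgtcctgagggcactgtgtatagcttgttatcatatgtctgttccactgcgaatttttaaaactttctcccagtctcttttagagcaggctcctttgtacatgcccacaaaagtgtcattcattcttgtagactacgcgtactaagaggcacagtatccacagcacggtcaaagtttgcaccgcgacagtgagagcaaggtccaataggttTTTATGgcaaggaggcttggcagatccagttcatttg
Ggt1, chr10:75035990-75036289, plus strand: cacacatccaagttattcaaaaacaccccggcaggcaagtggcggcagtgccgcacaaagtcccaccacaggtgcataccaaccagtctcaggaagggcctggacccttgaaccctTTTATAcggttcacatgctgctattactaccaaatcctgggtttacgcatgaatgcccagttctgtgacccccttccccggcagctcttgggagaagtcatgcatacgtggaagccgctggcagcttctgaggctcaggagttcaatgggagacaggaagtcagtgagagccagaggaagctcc
Enpep, chr3:129035618-129035917, minus strand: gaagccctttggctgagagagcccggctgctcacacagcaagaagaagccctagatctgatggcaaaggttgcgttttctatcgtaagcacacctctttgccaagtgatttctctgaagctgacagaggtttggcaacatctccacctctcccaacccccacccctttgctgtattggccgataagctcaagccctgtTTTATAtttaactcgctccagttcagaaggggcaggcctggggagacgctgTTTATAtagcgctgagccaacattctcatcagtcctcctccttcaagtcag
Matches of different motifs could overlap. The Mep1a window held 1 match, the CDX motif TTTATG at position 14 after its start site, found in 11.9% of 32544 promoter windows of the same length. The TATA box letters, TATAAA, stood in the windows of Enpep, Dpp4, Ace and Ggt1, 4 of 8, and in 13.6% of all windows. The matches began at -52 and -1 in Enpep, -227 in Dpp4, -31 in Ace and -134 in Ggt1. All but that of Dpp4 were on the opposite strand, and their use as TATA boxes was not tested. Ggt1, Mme and Ace had several start sites, and the window nearest to a transcript start in the tables was used. The GC box letters, GGGCGG, stood in 3 of 8 (Anpep, Ace and Mme), against 35.9% of all windows. A GATA motif, AGATAA, stood in that of Dpp4 alone, against 11.2% of all. None of the 8 held the HNF4 motif CAAAGTCCA, which was in 0.479% of all windows. None held the partial HNF1 motif GTTAAT, which was in 7.13%. The Anpep window lay 5858 bases upstream of the start of the transcript in the deposited tables, and that of Ggt1 lay 98 bases upstream.

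Abundance was read as FPKM (fragments per kilobase of transcript, scaled to the mapped fragments of each library), which can be compared between genes. The 9 genes spanned 85.5-fold in mean level. Anpep, aminopeptidase N, was the most abundant at 727 ± 159 FPKM (SD, n = 6 libraries), with 106 of 23699 rows of the tables above it. Mep1b followed at 441 ± 49.9 FPKM and Ggt1 at 391 ± 31.2 FPKM, and their ranges overlapped, with Mep1b higher in 5 of 6 libraries. Mme, Ace and Enpep lay close together at 165 ± 35.5, 144 ± 15.2 and 129 ± 31.6 FPKM, and neighbours in this order overlapped. Dpp4 had 87.8 ± 9.67 FPKM, below Enpep in 6 of 6 libraries although the ranges overlapped. Xpnpep2 at 9.07 ± 2.96 FPKM and Mep1a at 8.51 ± 3.87 FPKM formed the low end, clear of Dpp4 and overlapping each other. The order of this last pair differed between group means: Mep1a averaged 11.6 FPKM against 9.12 for Xpnpep2 in mutants, and 5.38 FPKM against 9.02 in controls. By library, Xpnpep2 was the higher in 2 of 6, controls 2 and 3.

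**Figure D1:**
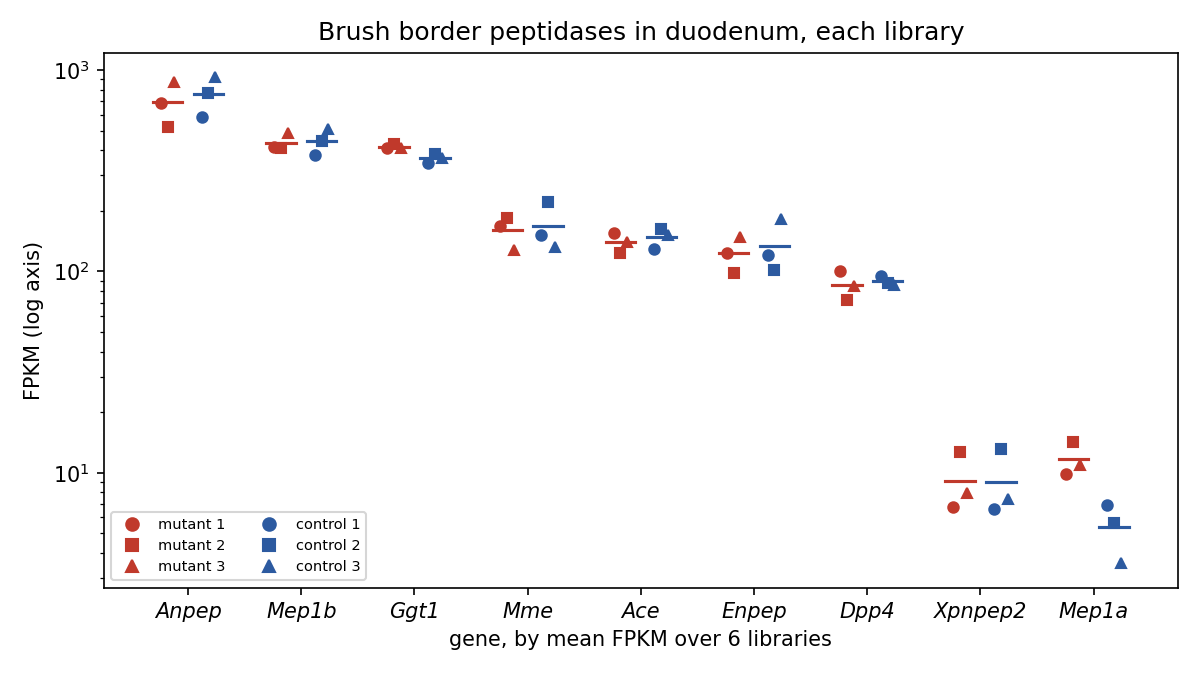
FPKM of the 9 genes on a log axis, genes ordered by mean. Symbols are single libraries, with mutants left and controls right of each gene, and lines are group means. Mep1a and Ggt1 are the genes whose groups do not overlap, and Mep1a and Xpnpep2 lie far below the others.

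Mep1a, the alpha subunit, was higher in the mutants. Its level was 9.83, 14.2 and 10.9 FPKM in mutants 1, 2 and 3, against 6.93, 5.65 and 3.55 FPKM in controls 1, 2 and 3. Each mutant lay above each control, the closest pair being mutant 1 and control 1. The group means were 11.6 ± 2.28 FPKM in mutants and 5.38 ± 1.71 FPKM in controls (SD, n = 3 each), a ratio of 2.16. On the log2(FPKM + 0.1) scale the difference, mutant minus control, was 1.13 (SE 0.26). Mep1a was singled out for this contrast in these libraries, so its values are a description and are not tested here. In the authors' deposited table its means were 630 and 278 size-factor-scaled reads in mutants and controls, with a log2 fold change of 1.18 and an adjusted p of 0.0141. That table lists 7 of 23284 genes under an adjusted p of 0.05.

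The counting error of Mep1a was small beside its spread between animals. Cufflinks gave intervals of 8.9 to 10.8, 13.3 to 15.1 and 10.0 to 11.7 FPKM in mutants 1, 2 and 3, and of 6.08 to 7.78, 5.02 to 6.28 and 3.04 to 4.06 FPKM in controls 1, 2 and 3. They correspond to between 191 reads, in control 3, and 994 reads, in mutant 2. No mutant interval reached a control interval. With 1 library left out the log2 difference ran from 0.87, without control 3, to 1.34, without control 1. It was 0.91 (SE 0.21) in the 4 libraries read as male and 1.13 (SE 0.21) with the replicate number as a block. In balanced groups the block can change the SE but not the difference.

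Mep1b, which encodes the membrane-anchored beta subunit, had similar levels in the groups. It measured 416, 409 and 485 FPKM in mutants and 379, 444 and 512 FPKM in controls, with means of 437 ± 42.1 and 445 ± 66.4 FPKM and a log2 difference of -0.02 (SE 0.13). The groups overlapped fully, all mutants lying inside the control range. Mep1b transcripts outnumbered those of Mep1a, per length, by 42.3, 28.8 and 44.6 to 1 in mutants and by 54.6, 78.6 and 144 to 1 in controls. The alpha share of meprin FPKM was therefore 2.62 ± 0.641% in mutants and 1.25 ± 0.554% in controls. Within groups the subunits tended to run in opposite directions, most clearly in controls: after centring on group means, their Pearson r over the 6 libraries was -0.8. Without centring it was -0.46, and in mutant 1 both subunits lay below their group mean.

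**Figure D2:**
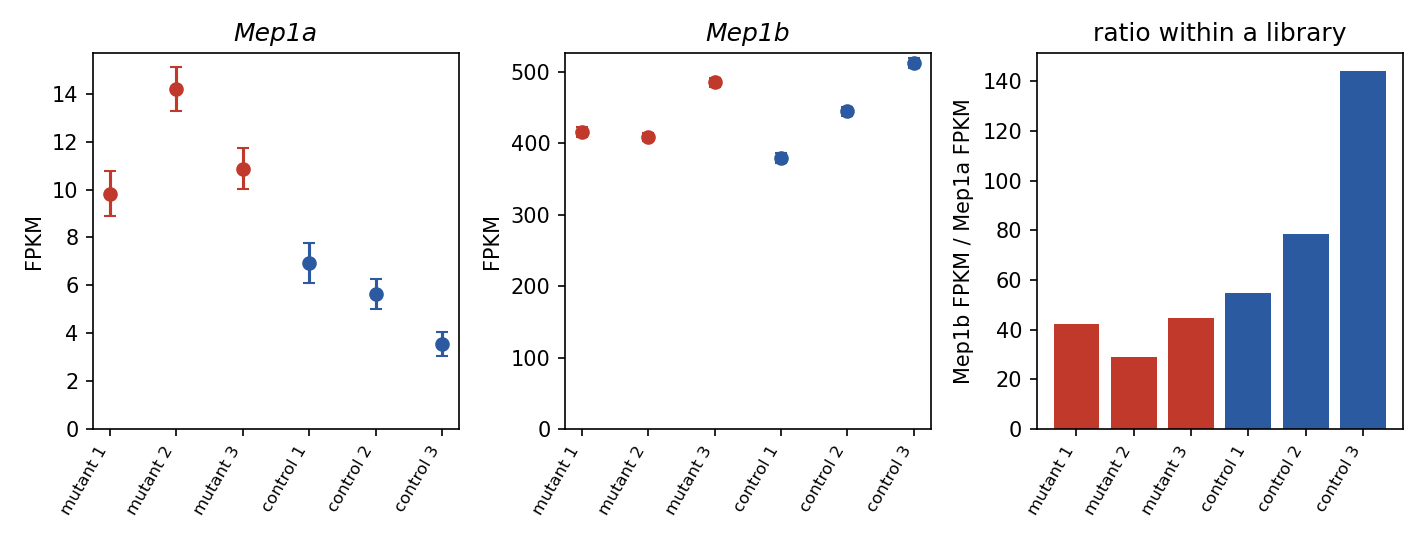
FPKM of Mep1a and Mep1b in each library with the authors' Cufflinks intervals, and the ratio of Mep1b to Mep1a FPKM within each library. Mutants are at the left of each panel. All Mep1a values of mutants lie above those of controls, Mep1b overlaps, and the ratio is 28.8 to 44.6 in mutants and 54.6 to 144 in controls.

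Ggt1 was the other member whose groups did not overlap. The enzyme, gamma-glutamyltransferase, removes the glutamyl residue of extracellular glutathione. Its level was 411, 430 and 410 FPKM in mutants, against 347, 385 and 365 FPKM in controls. Every mutant lay above every control, with a narrow spread in either group. Means were 417 ± 11.3 FPKM in mutants and 366 ± 18.6 FPKM in controls, a ratio of 1.14 and a log2 difference of 0.19 (SE 0.08). The difference was 0.12 (SE 0.08) after quantile normalization. In the authors' deposited table its log2 fold change was 0.24 with an adjusted p of 1.

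Full separation of groups, with mutants above, held for 2 of the 9 members and for 3.13% of the 15864 rows tested. Separation in either direction held for 13.1% of rows. Adjusted over all rows in limma, no member came under 0.05, and 0% of all rows did. The smallest adjusted p in the table was 0.255, and 2 genes outside the set, Chga and Mt1, passed with the replicate block. At an unadjusted p under 0.05 there were 922 rows, 5.81%, with 237 higher and 685 lower in mutants. These became 360 and 431 after quantile normalization, 432 and 472 with median-ratio scaling, and 445 and 807 with the replicate block. The median log2 difference of the 9 members was -0.06, and that of all tested rows was -0.05. Since the members were picked with this contrast known, their counts are not evidence about the set.

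The aminopeptidases overlapped between groups. Anpep, which removes neutral residues from the amino end of peptides, had 688, 520 and 878 FPKM in mutants and 586, 768 and 922 FPKM in controls. Control 3 and mutant 3 were the highest and mutant 2 the lowest. The log2 difference was -0.13 (SE 0.24). Enpep, aminopeptidase A, which removes acidic residues and acts on angiotensin II, had 124, 97.8 and 148 FPKM in mutants and 121, 101 and 182 FPKM in controls. Library 3 was again the highest in either group and library 2 the lowest, and the log2 difference was -0.1 (SE 0.24). Xpnpep2, the membrane-bound aminopeptidase P that frees residues before a proline, had 6.79, 12.6 and 7.94 FPKM in mutants and 6.58, 13.1 and 7.44 FPKM in controls. Here library 2 was the highest in either group, and the log2 difference was 0.03 (SE 0.31).

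Dpp4, Ace and Mme overlapped too. Dpp4, which removes dipeptides ending in proline or alanine and inactivates incretin hormones, had 101, 72.3 and 85.1 FPKM in mutants and 94.8, 88.0 and 85.6 FPKM in controls. The mutants spread to either side of the controls, and the log2 difference was -0.07 (SE 0.12). Ace, the dipeptidyl carboxypeptidase that forms angiotensin II, had 155, 123 and 141 FPKM in mutants and 129, 162 and 151 FPKM in controls, with a log2 difference of -0.08 (SE 0.12). Mme, neprilysin, an endopeptidase of small peptides, had 168, 185 and 128 FPKM in mutants and 152, 223 and 133 FPKM in controls. Library 2 was the highest and library 3 the lowest in either group, and the log2 difference was -0.06 (SE 0.22). Summed over the 8 members other than Mep1a, the level was 2068 ± 217 FPKM in mutants and 2119 ± 277 FPKM in controls.

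**Figure D3:**
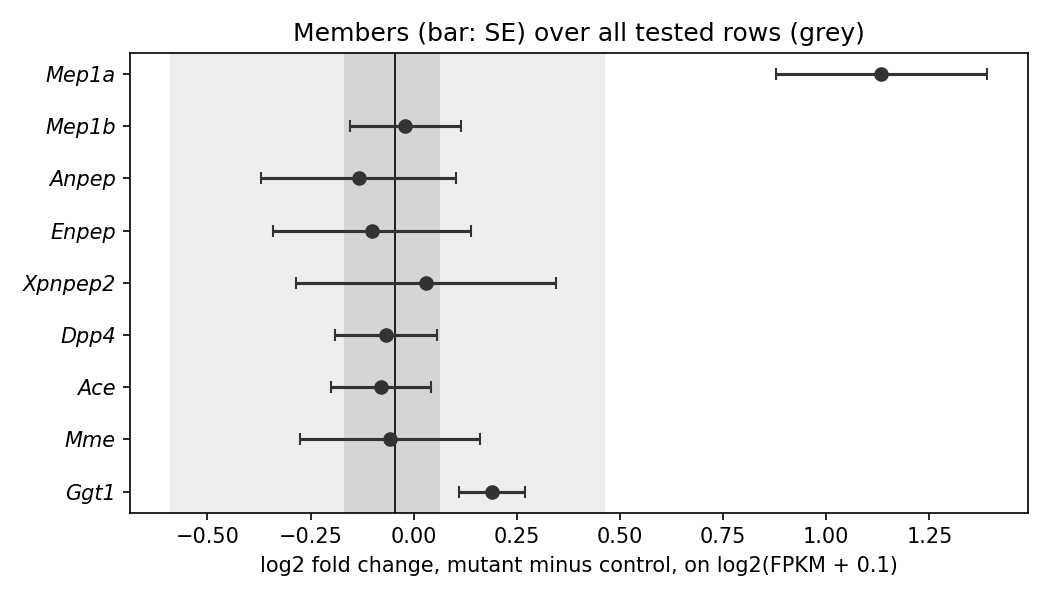
Log2 differences of the 9 members, mutant minus control, with bars of 1 SE, over the spread of all 15864 tested rows. The dark band holds the middle 50% of rows (-0.17 to 0.06), the light band 95% (-0.59 to 0.46) and the line is their median. Mep1a at 1.13 lies outside the light band.

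Of the members, 7 had a single RefSeq transcript in the tables, while Dpp4 and Ace had 2 each. For Dpp4, NM_010074 of 5268 nt carried 97.8 ± 1.07% of the FPKM in mutants and 96.8 ± 0.135% in controls. The shorter NM_001159543 of 3654 nt had 1.83, 2.5 and 1.22 FPKM in mutants, against 3.14, 2.71 and 2.85 FPKM in controls. All mutants lay below all controls, as did 8.6% of 19827 transcripts, but as a share of the gene the groups overlapped. For Ace, NM_207624 of 4906 nt spans the whole gene, and NM_009598 of 3129 nt begins inside it, at mm9 position 105836522 of chromosome 11, and encodes the short form known from testis. The short transcript was assigned 22.4, 11.2 and 34.4% of Ace FPKM in mutants and 8.1, 15.5 and 15.0% in controls. The groups overlapped in mutant 2. Most of the short transcript is shared with the long one, so its share is an estimate of Cufflinks and not a separate count.

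Seen library by library, the members split into sets that varied together. Centred on their group means over 6 libraries, Mep1b and Anpep had a Pearson r of 0.91, Anpep and Enpep 0.75, and Mep1b and Enpep 0.72. Mme and Xpnpep2 had 0.75, Xpnpep2 and Ggt1 0.92, and Enpep and Mme ran against each other at -0.9. Mep1a ran against Anpep (-0.81), Enpep (-0.8) and Ace (-0.65). These are descriptions of 6 points that share depth, RNA and, for some, sex of the animal, taken from 36 pairs. Centring on group means leaves fewer than 6 points free to vary. Libraries 3 of the groups both stood high in Anpep, Enpep and Mep1b and low in Mme, and libraries 2 both stood high in Xpnpep2 and Mme. The size of this spread differed between members: the SD within groups on the log2 scale was 0.06 for Ggt1, 0.17 for Ace, 0.18 for Dpp4 and Mep1b, 0.34 for Mme, 0.36 for Anpep, 0.37 for Enpep, 0.39 for Mep1a and 0.49 for Xpnpep2.

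**Figure D4:**
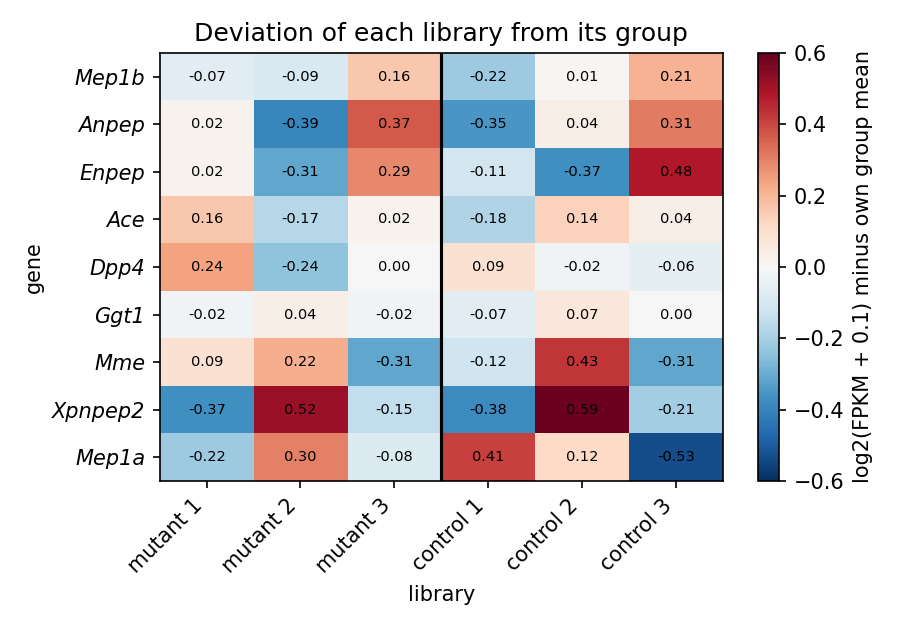
Deviation of each library from the mean of its own group on log2(FPKM + 0.1), for the 9 members, mutants left of the line. Mutant 3 and control 3 are above their group mean for Mep1b, Anpep and Enpep and below it for Mme, and Mep1a deviates most in control 3, at -0.53.

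The 5 rows whose pattern over the 6 libraries was most like that of Mep1a, among 12569 rows with a mean of at least 1 FPKM, were Rabggta (Pearson r 0.995), Hist1h2ba (0.985), Cd63 (0.982), Echs1 (0.981) and Cops4 (0.979). Their log2 differences, from 0.08 for Cops4 to 0.64 for Hist1h2ba, were all smaller than that of Mep1a. These r were not centred on groups, so they include the contrast for which Mep1a was singled out. They are the 5 highest of 12569 values over 6 libraries, and a link between the genes was not tested. Around Mep1a itself on chromosome 17 (mm9 43611278 to 43639722, minus strand), 14 of 18 rows starting within 1 Mb were tested. Their log2 differences ran from -0.89 to 0.89, with a median of -0.2. At an unadjusted p under 0.05 in limma, none was higher and 3 were lower in mutants. Of all tested rows, 1.49% were higher and 4.32% lower at this threshold.

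Genes that work beside these peptidases are given from fixed lists. None of their genes had an adjusted p under 0.05 in limma, so the counts are at an unadjusted p under 0.05, which 1.49% of all rows reached as higher and 4.32% as lower in mutants. With the replicate block, 445 of all 15864 rows were higher and 807 lower at this threshold. Counts given with the block are to be read against these. Among 20 genes of brush border structure and absorption, 1 was higher and none lower, with a list median of 0.06. A positive log2 difference was seen for 16, where 38.72% of all tested rows had one. The median of all rows, -0.05 here, was -0.01 after quantile normalization, and the count of 16 was not tested under other scalings. The 1 gene counted as higher was Espn, the actin bundler espin of microvilli. Espn had 93.7 ± 4.95 FPKM in mutants and 80.5 ± 6.13 FPKM in controls (log2 0.22, SE 0.08). Treh, trehalase, had a log2 difference of 0.28 and Ush1c, harmonin of the tip links between microvilli, 0.08. With the replicate block Treh was counted as well. Vil1, villin, which marks the enterocyte surface, had 668 ± 28.3 FPKM in mutants and 650 ± 30.5 FPKM in controls. The summed FPKM of the list ran from 16340 to 20680 in mutants and from 14180 to 20210 in controls.

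Other peptidases, a list not limited to enterocytes, gave 1 higher and 2 lower of 30 tested, with a median of -0.05. Pepd, the cytosolic prolidase that completes the breakdown of proline dipeptides, had 168 ± 8.2 FPKM in mutants and 141 ± 19.3 FPKM in controls (log2 0.26, SE 0.11). Lnpep, a membrane aminopeptidase of oxytocin and angiotensin, had 6.76 ± 1.17 and 9.09 ± 1.62 FPKM in mutants and controls (log2 -0.42, SE 0.17). Xpnpep3, the mitochondrial aminopeptidase P, had 1.01 ± 0.124 and 1.43 ± 0.192 FPKM (log2 -0.46, SE 0.17). With the replicate block Xpnpep3 was no longer counted, and Tpp2, with a log2 difference of -0.2, was counted as lower. Tmprss15, the enteropeptidase that activates trypsinogen, had a log2 difference of -0.1.

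Uptake of the products, through 14 peptide and amino acid transporters, had no gene at the unadjusted threshold and a median of 0.02. Slc1a1, a glutamate transporter, had -0.28, Slc7a8 0.19 and Slc16a10 0.12. With the replicate block Slc7a8 was counted as higher and Slc1a1 as lower. Among 14 tested genes that process meprins or that meprins are reported to cut, none was counted and the median was -0.03, with -0.29 for Egfr, -0.29 for Lama5 and -0.15 for Adam10, a sheddase of the beta subunit. With the block Il18 was counted as higher and Egfr as lower. The glutathione list had none of 11 and a median of -0.02, with 0.22 for Gstp1, 0.19 for Gpx4 and 0.14 for Gss. The angiotensin and kinin list had 1 of 8 lower, Lnpep again, and a median of -0.23, with -0.32 for Agtr1a and -0.13 for Bdkrb2.

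Of 15 transcription factors of enterocytes, 1 was higher and 1 lower, with a median of -0.04. Isx, an intestinal homeobox factor, had 63.8 ± 8.6 FPKM in mutants and 51.3 ± 4.8 FPKM in controls (log2 0.31, SE 0.12). Klf5, a factor of crypt cells, had 57.9 ± 4.19 FPKM in mutants and 69.5 ± 6.75 FPKM in controls (log2 -0.26, SE 0.1). Hnf4g, a nuclear receptor of differentiated enterocytes, had -0.19.

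**Figure D5:**
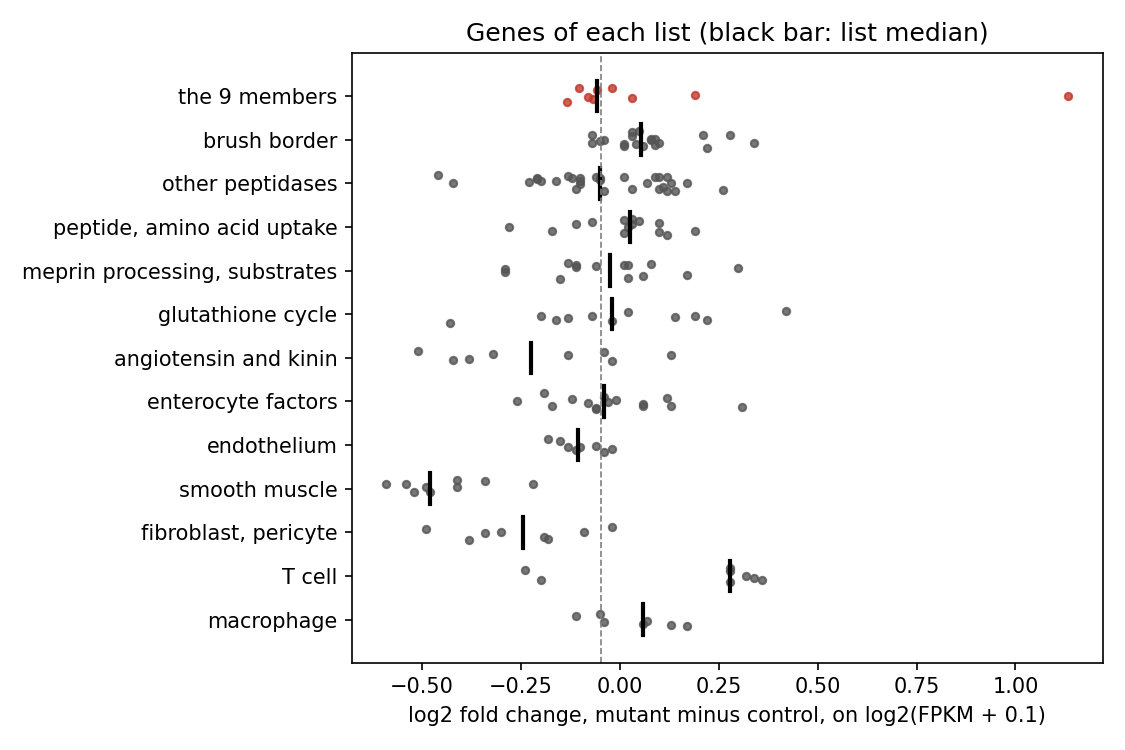
Log2 differences, mutant minus control, of the tested genes of 12 lists under those of the 9 members. Points are genes with random vertical placement, black bars are list medians and the dashed line is the median of all tested rows. Mep1a stands apart to the right, and the smooth muscle list lies to the left with a median of -0.48.

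Several members are also made outside the epithelium, so markers of other cells are given beside them. Endothelial markers, relevant to Ace, had none of 8 counted and a median of -0.1, with -0.18 for Kdr, -0.15 for Cdh5 and -0.13 for Lyve1, and summed to 107 to 120 FPKM in mutants and 108 to 122 in controls. Markers of fibroblasts and pericytes, which can carry Anpep, Enpep and Mme, were lower for 3 of 8 (Rgs5, Postn and Lum at -0.49, -0.3 and -0.38) and summed to 185 to 204 FPKM in mutants and 215 to 246 in controls. Smooth muscle markers were lower for 8 of 9, with -0.52 for Myh11, -0.48 for Synpo2 and -0.41 for Acta2, and for 9 of 9 with the replicate block, Tagln being added. They summed to 492 to 650 FPKM in mutants and 662 to 924 in controls. T cell markers, relevant to Dpp4, were higher for 1 of 8, Cd7 at 0.36, beside 0.28 for Cd8a and 0.32 for Cd3g. Of the 8, 6 had a positive log2 difference, where 38.72% of all tested rows did, and 2 had a negative one. All 8 overlapped between groups, and they summed to 110 to 140 FPKM in mutants and 97.1 to 113 in controls. With the block Cd7 was no longer counted, and Cd3g was counted as higher. B cell and macrophage markers had none counted, with medians of -0.29 over 6 and 0.06 over 7. Values included -0.24 for Cd79b and -0.34 for Cd79a, then 0.17 for C1qa, -0.11 for Cd68 and 0.13 for C1qc. With the block 3 B cell markers were counted as lower. The part of these cells in the members' values was not tested.

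Pancreatic acinar transcripts varied with the groups and from library to library. All 12 markers had a positive log2 difference, with a median of 3.32, and 3.55 for Ctrb1, 3.41 for Cela3b and 3.29 for Ctrl. Their sum ran from 2766 to 12330 FPKM in mutants and from 27.4 to 10920 FPKM in controls. None was counted without the replicate block and 12 were with it, where 445 of all 15864 rows were counted as higher. Control 3, with a pancreatic content close to that of mutant 3, had the lowest Mep1a. Control 3 is also the only control read as female and the only control without the reporter, and these cannot be told apart. With the mean log2 level of these transcripts as a covariate the Mep1a difference was 1.47 (SE 0.18). The part of pancreatic tissue in the Mep1a values was not tested. Stomach and Brunner's gland markers had a median of 0 over 5 tested, and the leading values were 1.03 (Tff1), -0.75 (Pgc) and -1.26 (Muc6). Tff1 was counted with the block. Distal intestine markers had 0.1 over 5, with 0.32 for Slc10a2, -0.91 for Fabp6 and 0.1 for Osta. Kidney markers, for another organ rich in these enzymes, stayed below the filter and summed to 0.0798 to 0.166 FPKM in mutants and 0.027 to 0.109 in controls.

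Mutant 3 and control 3 held Xist and almost no Y-linked transcript and were read as female, the other 4 as male. The pattern of libraries 3 thus set the female apart from the male animals. Enpep had 148 and 182 FPKM in female libraries and 97.8 to 124 FPKM in male ones. Anpep had 878 and 922 FPKM, against 520 to 768 FPKM in male libraries, and Mep1b 485 and 512, against 379 to 444. Mme was lower, with 128 and 133 FPKM in female libraries and 152 to 223 FPKM in male ones. These 4 of 9 members did not overlap between the sexes, a separation that 23.3% of all tested rows also showed. The sexes were compared after seeing the data, in limma with the mutation as a second term. Log2 differences, female minus male, were 0.57 (SE 0.13) for Enpep, 0.51 (SE 0.16) for Anpep, 0.28 (SE 0.1) for Mep1b and -0.47 (SE 0.15) for Mme, with adjusted p of 0.183, 0.279, 0.298 and 0.284. None of the 9 passed, where 0.24% of all rows did. At an unadjusted p under 0.05 there were 4 of 9, where 14.2% of all rows were counted. Mep1a had -0.46 (SE 0.22) and overlapped. The female libraries are also those with the most pancreatic transcript and the same replicate number, and sex cannot be told apart from these.

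The targeted gene, Nkx2-2, had 0.748, 0.744 and 0.666 FPKM in mutants and 1, 1.03 and 1.27 FPKM in controls, with an adjusted p of 0.786 in limma. The TN allele may still be transcribed, so this is a partial check of the labels. Depth, read from the Cufflinks intervals, was 16.88 to 25.91 M reads in mutants and 14.21 to 21.25 M in controls (M, megareads). The labels do not say whether littermates were used, so p-values measure the spread between these 6 animals.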

How the data were processed

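RNA from duodenum was sequenced in 3 mutant and 3 control mice, grouped by the labels' titles. The submitters' processing notes name CASAVA 1.8.2, then TopHat, Cufflinks, DESeq and the build mm9, without further versions. The authors deposited, per the file headers, FPKM with an interval for genes and RefSeq transcripts, and coverage as a signal per transcript. Their comparison table, as deposited, holds means of size-factor-scaled reads (a signal), a fold as a ratio, its log2 value and p-values. File starts were counted from 0 and are printed 1-based.

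Rows with a mean of at least 0.1 FPKM (15864, with 7835 below) were fitted with limma 3.58.1 in R 4.3.3 on log2(FPKM + 0.1), with a trended prior variance, no covariate and Benjamini-Hochberg adjustment over all rows. The pseudocount understates folds of low genes. All 9 members passed the filter. The fit was tested on simulated data. Reads behind a value were computed as the squared ratio of 2 FPKM to the distance from FPKM to its upper bound. They cover counting error only and were used for depth and for the read numbers of Mep1a.

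Members and lists were chosen with earlier results of these data known. Besides members, up to 3 genes of each list, those with the smallest unadjusted p, were named, with Nkx2-2 and the 5 rows most like Mep1a. Vil1, Tmprss15, Tpp2, Tagln, Il18, Chga and Mt1 were named outside this rule, after their values were seen. A result the rule would name is not reported here. Replicate numbers were taken as pairing the samples, because deviations from group means correlated at 0.106, 0.207 and 0.389 for numbers 1, 2 and 3. The labels state no shared litter or day. Mutant 2 correlated with control 1 at 0.127, above the number 1 pair, so the pairing of number 1 is uncertain. The number 3 libraries are those read as female and hold the most pancreatic transcript. In the block, number 3 therefore cannot be told apart from sex and pancreatic content. Alternatives were other pseudocounts, filters and scalings, no trend, the block, covariates for sex and pancreatic transcripts and leaving out each library. The male libraries alone were added after seeing the data.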

Additional observations from a re-analysis of the deposited data

How the results depend on the processing

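The Mep1a log2 difference was 1.13 and ran from 0.87 to 1.47 over the 17 alternatives, with 0.87 to 1.34 when 1 library was left out. In each, it moved by less than the spread between replicates. Since each mutant lay above each control, leaving out libraries or changing the pseudocount could not turn its sign. The filters, the trend, the block and the sex covariate cannot change this difference in balanced groups. Its sign under these settings is therefore no further support. Ggt1 ran from 0.12, with quantile normalization, to 0.23. The other 7 members stayed between -0.41 and 0.33 and moved by less than the spread between replicates. The count of genes past an adjusted p of 0.05, 0 in limma, was 2 under the replicate block, 1 with sex as a covariate and 1 in male libraries only. Leaving out 1 library gave 0 to 3: control 2 left out gave 2, mutant 1 gave 3 and mutant 2 gave 2. No member was among them, and among the listed genes the block changed no call at the unadjusted threshold beyond those given in the report. Rows at an unadjusted p under 0.05, 922 in all, numbered 578 in male libraries only and from 578, without control 1, to 1188, without mutant 2. They numbered 1252 with the replicate block and 1216 with the sex covariate. The split of higher and lower rows was 384 and 496 with the pancreatic covariate. FPKM carry no counts, and with 3 animals a group only large differences pass the adjustment over 15864 rows.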
